A study of Mus musculus with 6 samples.

Results

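The gene Fyco1 and 9 further genes of autophagy were followed in endothelial cells (ECs) sorted from the spinal cord of mice that lack TDP-43 in ECs and of their controls. The 10 genes (Fyco1, Sqstm1, Map1lc3a, Map1lc3b, Gabarap, Gabarapl1, Optn, Tbk1, Rab7 and Lamp1) were taken by symbol from the 56748 genes of the deposited count table, and each of the 10 was among the 13107 genes that passed the filter on low counts. Fyco1 was selected on its fall in this same comparison, TDP-43iΔEC against control, so its difference is given as a description and with no test. The 9 other genes were chosen for their roles and are read from the model fitted to all tested genes.

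Both groups were C57BL/6 mice carrying floxed Tardbp, the gene of TDP-43, and both received tamoxifen at 1 mg/mL from P5 to P7 and were collected at P16. The TDP-43iΔEC mice carried in addition Cdh5(PAC)-CreERT2, a tamoxifen-inducible Cre driven by the promoter of the endothelial cadherin Cdh5, whereas the control mice carried no Cre. Each group held 3 SMARTseq2 libraries. The study used mice of both sexes, the sex behind each library is not given in the sources used here, and nothing there says whether a library came from 1 mouse, so that p values measure only the spread between libraries. The genotype is therefore set against Cre-negative mice, and an effect of Cre itself cannot be told apart from that of the deletion. The libraries held 25704871 to 47270654 counts, and the smallest were 2 TDP-43iΔEC libraries. The ribosomal RNA gene Rn18s took 14.8, 14.8 and 18.5% of the counts in control and 8.04, 8.18 and 13.6% in TDP-43iΔEC libraries, which did not overlap, and its part in the differences was not tested beyond leaving ribosomal RNA genes out, where the log2 fold change of Fyco1 was -2.47. Levels are given as CPM, the counts of a gene scaled to a common library size after TMM, a scaling that corrects for library composition. A gene with 3 counts lay between 0.0617 and 0.116 CPM, depending on the library. In bulk RNA from sorted cells, fewer cells of a type and less RNA per cell cannot be told apart.

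Autophagy encloses cytoplasmic cargo in a double membrane, the autophagosome, and delivers it to the lysosome for breakdown. Proteins of the ATG8 family (the LC3 and GABARAP proteins) are coupled to lipid on the growing membrane, where they bind receptors such as SQSTM1 (p62) and OPTN (optineurin) that carry the cargo, and the kinase TBK1 phosphorylates these receptors. FYCO1 binds LC3, the lipid PI3P and the late endosomal GTPase RAB7 and links the vesicle to kinesin, which moves it toward microtubule plus ends. Mutations of human FYCO1 cause congenital cataract, and mutations of SQSTM1, OPTN and TBK1, like those of the TDP-43 gene, are found in amyotrophic lateral sclerosis.

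Tardbp itself was checked first. It measured 55.3, 61.9 and 58.5 CPM in the control libraries and 26.6, 16.1 and 11.8 CPM in the TDP-43iΔEC libraries, with no overlap. The log2 fold change was -1.62 (SE 0.41) with a limma-voom adjusted p of 0.287 and a DESeq2 adjusted p of 0.0216. Counts over the whole gene also include transcripts that lack the floxed exon, so they do not give the share of deleted cells. All 8 endothelial markers (among them Pecam1, Cldn5 and Cdh5) passed the filter, and their summed level was 12371 to 16330 CPM in control and 10788 to 13032 CPM in TDP-43iΔEC libraries. Of the 8, 3 were lower in TDP-43iΔEC libraries without overlap and 0 higher, beside 15.3% of all tested genes without overlap in either direction.

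TDP-43 binds RNA rich in UG, so runs of TG on the sense strand of the genes, which reads like the RNA, were listed. The Fyco1 gene (chr9:123618565-123680977 of GRCm39, minus strand) held 4 runs of at least 6 TG units, and all 4 lay in introns. They are shown because they are the stretches of Fyco1 of the kind that TDP-43 is known to bind. Each is printed 5′ to 3′ on the sense strand with 15 flanking bases on either side and the TG run in capitals.
Fyco1 intron, chr9:123679632-123679665, 17 units: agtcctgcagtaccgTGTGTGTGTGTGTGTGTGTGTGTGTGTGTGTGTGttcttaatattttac
Fyco1 intron, chr9:123651145-123651180, 18 units: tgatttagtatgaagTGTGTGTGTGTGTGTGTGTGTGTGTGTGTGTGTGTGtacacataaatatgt
Fyco1 intron, chr9:123651115-123651126, 6 units: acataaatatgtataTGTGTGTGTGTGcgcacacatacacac
Fyco1 intron, chr9:123650176-123650197, 11 units: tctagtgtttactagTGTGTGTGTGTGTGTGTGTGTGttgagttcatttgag

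The first of these runs lay 1312 bases from the gene's start, and the other 3 lay 29797 to 30780 bases from it. Such runs are common. Of the 13060 tested genes with an annotated span, 66.1% held at least 1, and among the 1268 genes of a span like that of Fyco1 the share was 98.0%. The longest run of Fyco1, 18 units, was equalled or exceeded in 43.1% of the tested genes. Rab7 held 24 runs with a longest of 29 units, a length that 4.16% of the tested genes reached. Tbk1 held 6 runs and Optn 4, Sqstm1, Map1lc3b and Gabarapl1 held 2 each and Lamp1 held 1, whereas Map1lc3a and Gabarap held none. A run is a match of letters and was not tested as a binding site.

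The promoters of the genes differed in the CACGTG element, the core of the CLEAR element through which TFEB drives lysosomal genes. RefSeq promoter windows of 300 bases (250 before to 50 after the start, GRCm38.p6) were at hand for 9 of the 10 genes, not for Map1lc3a. CACGTG, which reads the same on both strands, was present in Tbk1 and Lamp1 and in 11.7% of the 9470 tested genes with such a window, and the longer form TCACGTGA was in no window of the 9 genes and in 2.32% of those genes. Lamp1 held 4 copies, of which the first began 61 and the last 15 bases before the start. Tbk1 held 1 copy, 5 bases after the start. Both stretches are printed to show the 4 clustered copies of Lamp1 beside the single copy of Tbk1, with CACGTG in capitals.
Lamp1 promoter, chr8:13159088-13159163, plus strand: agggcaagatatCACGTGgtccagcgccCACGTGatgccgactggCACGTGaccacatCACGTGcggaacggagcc
Tbk1 promoter, chr10:121586772-121586801, minus strand: cccgcactcggtCACGTGctccgtggcccg

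One of the 2 Fyco1 windows held a repeat, noticed when its sequence was read. It contained 5 copies of a word of 20 bases at a spacing of 30 bases. Only 19 of the 9470 genes (0.201%) had a window in which any word of 20 bases occurred 3 or more times. The window is printed with the 5 copies in capitals.
Fyco1 promoter, chr9:123851850-123852149 of GRCm38.p6, minus strand: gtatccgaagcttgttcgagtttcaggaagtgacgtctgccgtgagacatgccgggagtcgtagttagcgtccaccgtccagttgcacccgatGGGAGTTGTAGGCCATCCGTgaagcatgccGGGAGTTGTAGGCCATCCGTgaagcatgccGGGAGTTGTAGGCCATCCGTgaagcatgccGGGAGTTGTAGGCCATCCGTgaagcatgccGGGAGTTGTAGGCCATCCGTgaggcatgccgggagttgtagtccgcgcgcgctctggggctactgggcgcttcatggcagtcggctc

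Fyco1 RNA was present at 114, 155 and 123 CPM in the 3 control libraries and at 17.1, 31.9 and 25.6 CPM in the 3 TDP-43iΔEC libraries. Each TDP-43iΔEC library lay far below each control library. The means were 130.4 ± 21.7 CPM (SD, n = 3) in control and 24.8 ± 7.44 CPM (SD, n = 3) in TDP-43iΔEC mice, and the fitted log2 fold change was -2.50 (SE 0.36), 5.67-fold lower. The counts behind these levels were 4875, 6414 and 5348 in control and 829, 993 and 663 in TDP-43iΔEC libraries, so that no value lay near the limit of detection. Under the 16 alternative settings, which include leaving out each library, the log2 fold change ran from -2.72 to -2.17.

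Lower fold changes than that of Fyco1 were found mainly in genes of lower level. Fyco1 was selected on its fall in these same values, so its place in this order is only a description. Of the 13107 genes tested, 849 had a lower log2 fold change than Fyco1. At a mean level of at least that of Fyco1 (77.6 CPM over the 6 libraries) there were 2123 genes, and 2 of them had a lower log2 fold change, the myelin gene Mbp and Xist, the RNA of the inactive X chromosome, both named here after their values were seen. Because Xist is expressed in females, its lower level and the unstated sex of the libraries stand beside the result, and the part of sex was not tested. The largest fall among the genes past the adjusted threshold was that of Apoe, which encodes a lipoprotein of lipid transport, with a log2 fold change of -2.27. Fyco1 is given no test here, so its value is not ranked against that of Apoe.

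**Figure D1:**
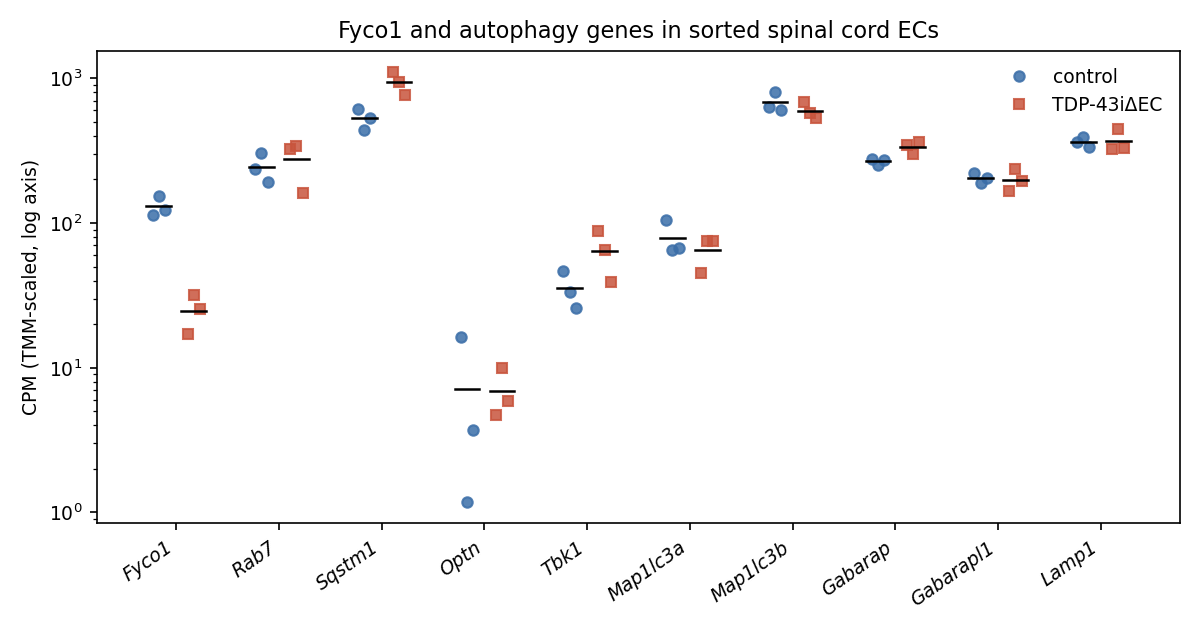
CPM (TMM-scaled, log axis) of the 10 genes, with 1 point per library, blue circles for the 3 control and red squares for the 3 TDP-43iΔEC libraries, and a black line at each mean. The groups are apart for Fyco1 (113.6 to 154.9 against 17.1 to 31.9 CPM), which was chosen for its fall. They are also apart for Sqstm1 and Gabarap, and overlap for the other 7 genes. Of all tested genes, 15.3% had groups that did not overlap.

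Genes next to Fyco1 were read for comparison. Of the genes within 250000 bases of Fyco1, 5 passed the filter on low counts, and with TMM scaling all 5 had a log2 fold change above 0, none with an adjusted p under the threshold. Sacm1l, a phosphoinositide phosphatase gene, had a log2 fold change of 0.41 (SE 0.45, limma-voom adjusted p = 0.788). Lztfl1, which encodes a regulator of ciliary trafficking, had one of 0.12 (SE 0.37, limma-voom adjusted p = 0.938). The transporter gene Slc6a20a ranged from 0 to 13.6 CPM in control and from 0.848 to 23.9 CPM in TDP-43iΔEC libraries (limma-voom adjusted p = 0.691). The other 2 were the predicted genes Gm10052 (adjusted p = 0.964) and Gm57030 (adjusted p = 0.973), the latter on the opposite strand over 6.44% of the exonic bases of Fyco1. The counting is not stated to use strand, but Gm57030 had only 16 to 83 counts, and with its counts added the log2 fold change of Fyco1 was -2.43.

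Markers of other cell types were read beside the fall of Fyco1. The summed level of 5 oligodendrocyte markers was 296, 385 and 591 CPM in control libraries and 461, 53.9 and 15.5 CPM in TDP-43iΔEC libraries. The TDP-43iΔEC library with 461 CPM, within the control range, was the one with the lowest Fyco1 level, 17.1 CPM. Olig1, among these 5 markers, had 0 counts in that same library, so the sum does not stand for each marker. The summed level of 5 erythroid genes was 6935 to 10576 CPM in control and 2034 to 2884 CPM in TDP-43iΔEC libraries. All 5 were lower without overlap, beside 15.3% of all tested genes without overlap in either direction. The neuronal sum was 5.13 to 12.0 against 0.738 to 2.00 CPM, with 1 of the 5 neuronal markers lower and 1 higher without overlap and 3 of the 5 past the filter on low counts. The sums of mural cell (387 to 923 CPM), fibroblast (2.20 to 25.0 CPM), astrocyte (0 to 25.6 CPM) and microglia and macrophage markers (0 to 8.14 CPM, with Adgre1 at 0 in all libraries) overlapped between the groups. The part of the oligodendrocyte, erythroid and neuronal markers in the level of Fyco1 was not tested.

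Among the tested genes whose pattern over the 6 libraries was most like that of Fyco1 were Gstk1, Klhl8, Wdr24 and Olig1. Pearson's r of their log2 CPM with that of Fyco1 lay between 0.989 and 0.999 across the 6 libraries. All 4 were lower in each TDP-43iΔEC library than in each control library, which follows from choosing them by this likeness. The groups did not overlap in 15.3% of all tested genes. In all, 267 genes (2.04%) had an r above 0.9, and all these correlations share the same libraries and the same split into genotypes.

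Gstk1, a glutathione S-transferase gene, measured 74.2, 84.9 and 73.2 CPM in control and 31.5, 41.4 and 36.2 CPM in TDP-43iΔEC libraries. Wdr24, which encodes a subunit of the GATOR2 complex upstream of mTORC1, measured 18.8, 23.0 and 17.6 CPM against 4.55, 8.83 and 6.94 CPM. In both genes the TDP-43iΔEC level was a larger share of the control level than in Fyco1. Klhl8 was at 7.36, 12.7 and 9.33 CPM in control libraries and at 0, 0.321 and 0.116 CPM in TDP-43iΔEC libraries. Olig1, a transcription factor of the oligodendrocyte lineage and one of the oligodendrocyte markers, was at 4.26, 7.51 and 5.02 CPM against 0, 0.161 and 0 CPM. In the TDP-43iΔEC libraries these levels stood for 0, 10 and 3 counts of Klhl8 and 0, 5 and 0 counts of Olig1.

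**Figure D2:**
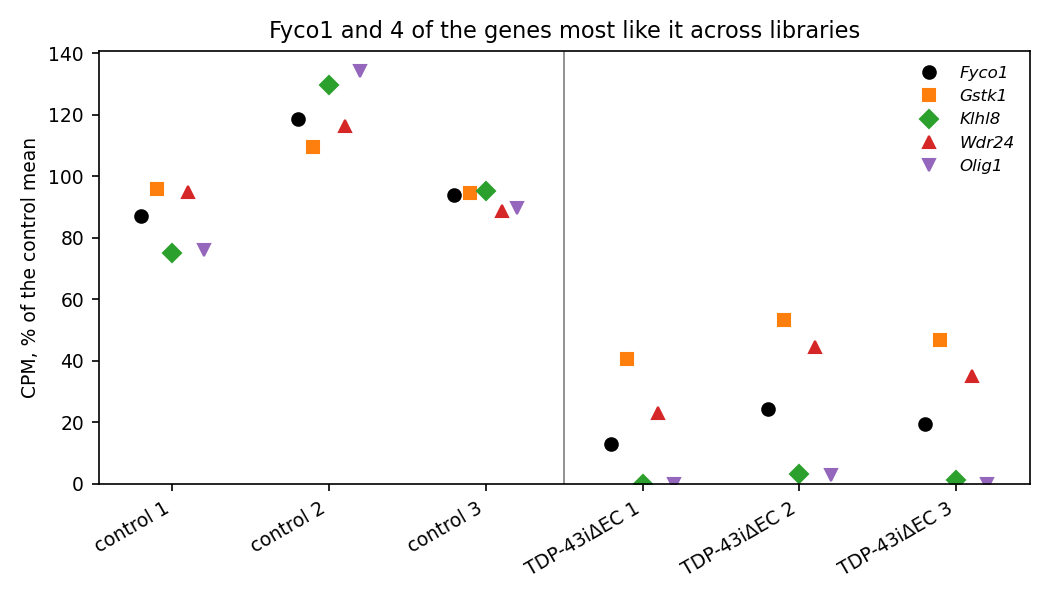
CPM of Fyco1 and of 4 of the genes most like it, each as a percentage of its own mean in the control libraries, for each of the 6 libraries. Control 2 holds the highest control value and TDP-43iΔEC 1 the lowest value of Fyco1, with 154.9 and 17.1 CPM.

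None of the 9 other genes passed the threshold of 0.05 on the limma-voom adjusted p, where 18 of all 13107 tested genes (0.137%) did, and the lowest adjusted p among the 9 was 0.223. An unadjusted limma-voom p under 0.05 was found for 2 of the 9, Sqstm1 and Tbk1, beside 9.27% of all tested genes. The groups did not overlap for 2 of the 9, Sqstm1 and Gabarap, beside 15.3% of all tested genes. DESeq2 called 1 of the 9, Sqstm1, beside 1.97% of the 12661 genes to which it gave an adjusted p, and edgeR's quasi-likelihood test called 0 genes of all. The fitted log2 fold change was above 0 for 5 of the 9 and below 0 for 4, with a median of 0.18 beside -0.02 for all tested genes. The signs of Optn, Lamp1, Map1lc3b, Gabarapl1 and Rab7 turned under at least 1 alternative. Permuting 3 libraries against 3 exactly gives no p under 0.1 for any 1 gene.

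Sqstm1, the gene of the cargo receptor p62 (chr11:50089572-50107684), measured 618, 441 and 534 CPM in control and 1102, 948 and 766 CPM in TDP-43iΔEC libraries. The lowest TDP-43iΔEC value was above the highest control value. The means were 531 ± 88.4 CPM and 939 ± 168 CPM (SD, n = 3 each), with a log2 fold change of 0.85 (SE 0.18). The limma-voom adjusted p was 0.223 (unadjusted p = 0.00124). The call depended on the method. The adjusted p was 0.00215 with DESeq2 and 0.0487 with quantile normalization in limma-voom, and it reached 0.582 among the 16 alternatives. Leaving out 1 library at a time gave log2 fold changes of 0.70 to 0.98. Exons of Mrnip, on the opposite strand, cover 17.2% of the exonic bases of Sqstm1, and with the counts of the overlapping opposite-strand genes added the log2 fold change was 0.79.

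Tbk1, the gene of the kinase that acts on p62 and optineurin (chr10:121382360-121422848), measured 46.8, 33.3 and 25.9 CPM in control and 88.2, 64.7 and 39.2 CPM in TDP-43iΔEC libraries. The lowest TDP-43iΔEC library lay within the control range. The log2 fold change was 0.92 (SE 0.40) with a limma-voom adjusted p of 0.536 (unadjusted p = 0.0478), and it stayed between 0.58 and 1.19 under the 16 alternatives without passing the adjusted threshold.

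Optn, the gene of optineurin (chr2:5022703-5068945), was the lowest of the 10 genes and the most uneven. It measured 16.3, 1.18 and 3.74 CPM in control and 4.75, 9.98 and 5.90 CPM in TDP-43iΔEC libraries, from 49 to 700 counts. The 3 TDP-43iΔEC values all lay inside the control range. The log2 fold change of 0.53 (SE 1.17, limma-voom adjusted p = 0.904) rested on the control library with 1.18 CPM, and without that library it was -0.34. The mean CPM, 7.08 in control and 6.88 in TDP-43iΔEC mice, had the opposite order to the fitted value.

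In the ATG8 family, whose proteins mark the autophagosome, Gabarap was above 0 in its log2 fold change and the other 3 genes were below, although with library size only Map1lc3b and Gabarapl1 were at 0.0231 and 0.117. Gabarap (chr11:69881888-69886109) measured 278, 252 and 271 CPM in control and 346, 300.3 and 364 CPM in TDP-43iΔEC libraries. These groups did not overlap, and the log2 fold change was 0.33 (SE 0.16, limma-voom adjusted p = 0.558). Map1lc3b, the LC3B gene (chr8:122317100-122325499), was at 600 to 811 CPM in control and 534 to 689 CPM in TDP-43iΔEC libraries, with a log2 fold change of -0.16 (SE 0.17, limma-voom adjusted p = 0.774). Map1lc3a, the LC3A gene (chr2:155118217-155119998), was at 64.6 to 105 and 45.5 to 75.0 CPM, with a log2 fold change of -0.35 (SE 0.33, limma-voom adjusted p = 0.738). Gabarapl1 (chr6:129509725-129520544) was at 188 to 221 and 168 to 237 CPM, with a log2 fold change of -0.07 (SE 0.20, limma-voom adjusted p = 0.925). The ranges of the last 3 genes overlapped between the groups. Pseudogenes share sequence with Map1lc3b, in which 31.9% of stretches of 51 bases also occur in other annotated genes, so its counts are uncertain to that extent. The share was 0% in Gabarap and Map1lc3a. In Gabarapl1 it was 23.1%, all with 1700101I11Rik, a gene on the opposite strand that had 0 to 7 counts. With those counts added the log2 fold change of Gabarapl1 was -0.07.

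Rab7, the gene of the GTPase that recruits FYCO1 to late endosomes and autophagosomes (chr6:87976083-88022295), measured 235, 303 and 192 CPM in control and 326, 342 and 161 CPM in TDP-43iΔEC libraries. The TDP-43iΔEC libraries held both the highest and the lowest of the 6 values, and the log2 fold change was 0.18 (SE 0.30, limma-voom adjusted p = 0.861). Lamp1, which encodes a major glycoprotein of the lysosomal membrane (chr8:13209121-13227360), measured 362, 395 and 334 CPM in control and 323, 448 and 329.7 CPM in TDP-43iΔEC libraries. Its log2 fold change of -0.01 (SE 0.18, limma-voom adjusted p = 0.993) was the smallest of the 10 genes, and its sign turned with the setting in 11 of the 16 alternatives. Exons of Grtp1, on the opposite strand, cover 49.2% of the exonic bases of Lamp1, and 38.3% of its stretches of 51 bases occur in Grtp1. Grtp1 had 0 to 252 counts, and with the opposite-strand counts added the log2 fold change of Lamp1 was -0.02.

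**Figure D3:**
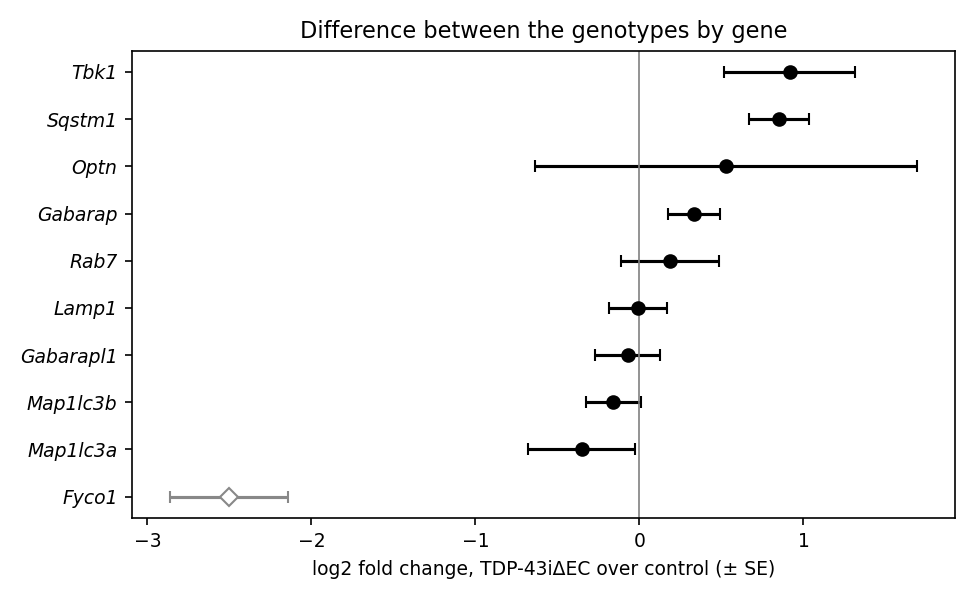
Fitted log2 fold change of TDP-43iΔEC over control for each of the 10 genes, with bars of 1 standard error (n = 3 libraries per group). Fyco1 (open diamond), chosen for its fall, is at -2.50, and the 9 other genes lie between -0.35 for Map1lc3a and 0.92 for Tbk1.

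To compare levels between genes, CPM was divided by the length of the annotated exons of each gene in kilobases. On this scale Gabarap was the highest with 133.7 ± 19.7 CPM per kb (SD over the 6 libraries), followed by Sqstm1 (89.6 ± 30.9), Map1lc3b (84.1 ± 13.0), Lamp1 (70.1 ± 9.31), Map1lc3a (54.7 ± 14.8), Gabarapl1 (54.7 ± 6.69) and Rab7 (41.0 ± 11.8). Tbk1 (8.76 ± 4.07), Fyco1 (8.12 ± 6.24) and Optn (0.617 ± 0.479) came last. The ranges over the libraries of Rab7 and Tbk1, and those of Fyco1 and Optn, did not overlap. All other neighbours in this order overlapped in their ranges.

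The levels and the order among the high genes depended on the length used. With the Ensembl canonical transcript in place of all annotated exons, Map1lc3b was first with 721 CPM per kb, whereas Tbk1, Fyco1 and Optn were the last 3 genes with either length. The mean of Fyco1 pools both groups and stands for 13.6 CPM per kb in control and 2.60 CPM per kb in TDP-43iΔEC mice, the difference on which it was selected.

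The wider pathway was read from lists of 139 genes in 12 roles, of which 134 besides Fyco1 passed the filter. The limma-voom test called 0 of the 134, 12 had an unadjusted p under 0.05 (4 higher and 8 lower), a share of 8.96% beside 9.27% of all tested genes, and in 20 the groups did not overlap (7 higher and 13 lower), a share of 14.9% beside 15.3%. The median log2 fold change of the 134 was -0.01 beside -0.02 for all tested genes. DESeq2 called 4 of the 134 (2.99%, beside 1.97% of all genes with an adjusted p), Sqstm1, the mitophagy receptor gene Bnip3l, the lysosomal galactosidase gene Glb1 and the mTORC1 inhibitor gene Tsc2. On the limma-voom counts the shares of the list genes stood close to the background. The number with an unadjusted p under 0.05 was 9 to 15 over the alternatives.

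**Figure D4:**
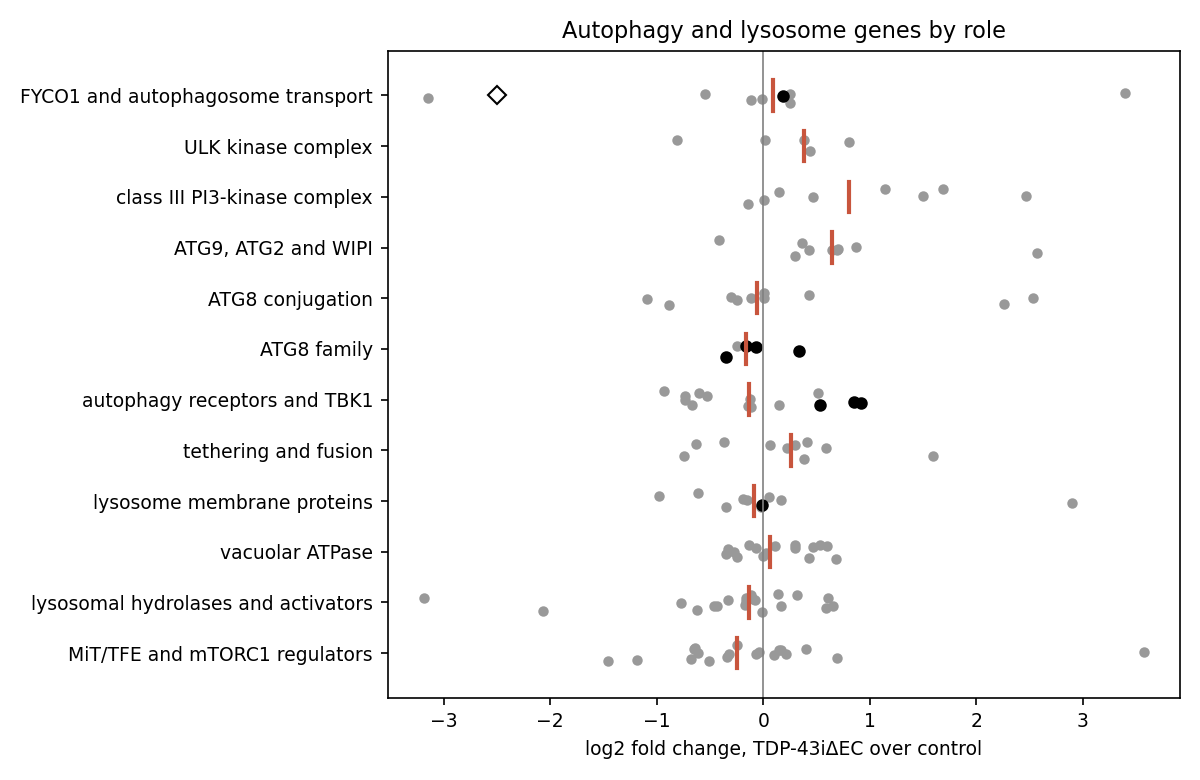
Log2 fold change of TDP-43iΔEC over control for the tested genes of 12 autophagy and lysosome lists, with 1 point per gene. Black points are the other genes among the 10, the open diamond is Fyco1 (-2.50), and red lines are medians without Fyco1, from -0.25 for the MiT/TFE and mTORC1 regulators to 0.80 for the class III PI3-kinase complex.

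In the list of autophagosome transport, 8 genes besides Fyco1 passed the filter. In 0 of the 8 was the unadjusted p under 0.05, beside 9.27% of all tested genes. Log2 fold changes were above 0 in 4 and below 0 in 4, with a median of 0.09. Rab1a, the gene of a GTPase of traffic from the endoplasmic reticulum, measured 197, 259 and 218 CPM in control and 278, 288 and 227 CPM in TDP-43iΔEC libraries (log2 fold change 0.25, SE 0.19, limma-voom adjusted p = 0.672). The kinesin genes Kif5a and Kif5c did not pass the filter.

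The genes that start autophagosome formation were mostly above 0 in their log2 fold change, beside 49.3% of all tested genes, and none passed the adjusted threshold. Values above 0 were found for 4 of 5 genes of the ULK kinase complex (median 0.38), 7 of 8 of the class III PI3-kinase complex (median 0.80) and 8 of 9 of the ATG9, ATG2 and WIPI group (median 0.65). The lowest medians of the latter 2 groups came without control 2, the library with the fewest genes counted (12972). Without control 2 the counts above 0 were 3 of 5, 5 of 8 and 6 of 9 and the medians 0.12, 0.02 and 0.17, where the median of all tested genes was -0.17. The median of the ULK kinase complex turned to -0.09 without TDP-43iΔEC 1. Rubcn, the gene of Rubicon, an inhibitor of the class III PI3-kinase complex, measured 5.85, 19.2 and 12.2 CPM in control and 38.6, 34.1 and 32.7 CPM in TDP-43iΔEC libraries, with no overlap. Its log2 fold change was 1.69 (SE 0.51) with a limma-voom adjusted p of 0.375. The more abundant genes of these groups had overlapping ranges. Becn1, the gene of the complex subunit Beclin 1, had a log2 fold change of -0.15 (SE 0.24, limma-voom adjusted p = 0.862), and Vmp1, a membrane protein of the endoplasmic reticulum, one of 0.70 (SE 0.37, limma-voom adjusted p = 0.578). Pik3r4, Atg101, Atg13 and Wdr45b had adjusted p values of 0.717 to 0.810.

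Of the 10 genes that couple ATG8 proteins to lipid, 5 were above and 5 below 0. Atg5, whose protein is part of the ligase of this reaction, measured 87.3, 96.7 and 76.9 CPM in control and 38.9, 61.0 and 47.4 CPM in TDP-43iΔEC libraries. These groups did not overlap, and the log2 fold change was -0.88 (SE 0.28, limma-voom adjusted p = 0.404). Its partner Atg12 had a log2 fold change of 0.01 (SE 0.23, limma-voom adjusted p = 0.996).

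Among the autophagy receptors and TBK1, 14 genes passed the filter, 5 with a log2 fold change above 0 and 9 below. Sqstm1 and Tbk1 were the 2 with an unadjusted p under 0.05 above 0, and Bnip3l was the one below 0. Together they were 3 of the 14 (21.4%), beside 9.27% of all tested genes. Bnip3l, the gene of the mitophagy receptor NIX, which clears mitochondria from maturing red cells, measured 491, 482 and 492 CPM in control and 320.4, 297 and 353 CPM in TDP-43iΔEC libraries. These groups did not overlap, with a log2 fold change of -0.60 (SE 0.14, limma-voom adjusted p = 0.271, DESeq2 adjusted p = 0.012). The summed erythroid markers given above, 6935 to 10576 and 2034 to 2884 CPM, were lower in the same libraries, and their part in the level of Bnip3l was not tested.

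Genes of tethering and fusion showed 0 of 10 with an unadjusted p under 0.05, and so did the 10 genes listed as lysosome membrane proteins. The share over all tested genes was 9.27%. The SNARE gene Vamp8 had a log2 fold change of 0.06 (SE 0.26, limma-voom adjusted p = 0.956) and the tether gene Vps16 one of -0.63 (SE 0.41, limma-voom adjusted p = 0.634). The cholesterol transporter gene Npc2, in the membrane list although its protein is soluble, had one of -0.02 (SE 0.23, limma-voom adjusted p = 0.989). Of the 16 subunits of the vacuolar ATPase, which acidifies the lysosome, 0 had an unadjusted p under 0.05, and in 4 (25%, beside 15.3% of all tested genes) the groups did not overlap, 1 higher and 3 lower. The abundant subunits Atp6v1f and Atp6v0b were among the lower, with log2 fold changes of -0.28 (SE 0.19, limma-voom adjusted p = 0.645) and -0.33 (SE 0.21, limma-voom adjusted p = 0.630).

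The lysosomal hydrolases and activators, with 20 genes one of the longest lists, held the most low p values of the 12. An unadjusted p under 0.05 was found in 6 of 20 (30%, beside 9.27% of all tested genes), with 1 higher and 5 lower, and 14 of the 20 were below 0 with a median of -0.13, which ran from -0.17 to 0.05 over all settings. The higher gene was Grn, which encodes progranulin and is named here after its values were seen, with a log2 fold change of 0.61 and a limma-voom adjusted p of 0.533. Glb1, the gene of the lysosomal beta-galactosidase, measured 94.7, 123 and 83.2 CPM in control and 24.9, 35.9 and 12.6 CPM in TDP-43iΔEC libraries. These groups did not overlap. The log2 fold change of Glb1 was -2.07 (SE 0.41) with a limma-voom adjusted p of 0.192 and a DESeq2 adjusted p of 0.00252.

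Lipa, the gene of lysosomal acid lipase, measured 482, 401 and 462 CPM in control and 253, 361 and 282 CPM in TDP-43iΔEC libraries (log2 fold change -0.62, SE 0.18, limma-voom adjusted p = 0.360). The groups did not overlap, and Lipa did not pass the adjusted threshold. The most abundant genes of this list had overlapping ranges. Psap, which encodes the precursor of the saposins, had a log2 fold change of -0.33 (SE 0.24, limma-voom adjusted p = 0.672), and Ctsd, the gene of cathepsin D, one of 0.14 (SE 0.22, limma-voom adjusted p = 0.856).

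Among the MiT/TFE factors and mTORC1 regulators, which set the transcription of lysosomal genes, 7 of 19 were above and 12 below 0. Tsc2, whose protein restrains mTORC1, measured 144, 155 and 109 CPM in control and 48.1, 80.1 and 57.5 CPM in TDP-43iΔEC libraries, with no overlap. Its log2 fold change was -1.18 (SE 0.29) with a limma-voom adjusted p of 0.271 and a DESeq2 adjusted p of 0.042. The Ragulator genes Lamtor5 and Lamtor2 had log2 fold changes of -0.25 (SE 0.27, limma-voom adjusted p = 0.779) and -0.32 (SE 0.31, limma-voom adjusted p = 0.751).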

How the data were processed

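RNA-Seq was performed on ECs sorted from spinal cord, in 6 libraries, 3 of control and 3 of TDP-43iΔEC mice. The authors aligned reads to GRCm39 with STAR and the GENCODE M30 annotation and deposited RSEM estimated counts per gene, which held 0 non-whole values and no scaling. SMARTseq2 amplifies by PCR without molecular identifiers. The paper gives a range of RNA input, set by sample availability, and alternative numbers of amplification cycles. The input and cycles of each library are not given in the sources used here, and their part in the differences was not tested.

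Groups followed the labels. Counts were TMM-scaled and filtered with filterByExpr (edgeR 4.0.16), then fitted with limma 3.58.1 (voom) in R 4.3.3, with Benjamini-Hochberg adjustment over all tested genes and a threshold of 0.05. Alternatives were edgeR's quasi-likelihood test, DESeq2 1.42.0, other scalings and filters, quality weights, a replicate block, ribosomal RNA genes left out and each library left out. The scripts were tested on simulated data. Coordinates, exon lengths and TG runs came from GRCm39 with GENCODE M39 (98.7% of identifiers matched), promoters from RefSeq.

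The genes and lists were chosen with earlier results of these data known. Named from each list were genes past the threshold, up to 3 with an unadjusted p under 0.05 and groups apart, and the 2 highest per kilobase. Some genes may not be reported here.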

Additional observations from a re-analysis of the deposited data

How the results depend on the processing

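The fall of Fyco1, on which it was selected, kept its direction in all 16 alternatives. These refit the same libraries in which it was selected, so they do not test the fall. The number of genes called among all genes was 18, and 0 with edgeR (848 with an unadjusted p under 0.05), 250 with DESeq2, 10 with library size only, 40 with quantile normalization, 76 with no filter on low counts and 39 with at least 10 counts in every library. It was 0 to 13 with 1 library left out, where the count of 0 (960 with an unadjusted p under 0.05) came without TDP-43iΔEC replicate 1. The list genes called were 0, and 4 with DESeq2 and 1 (Sqstm1) with quantile normalization, and 0 in each fit that left out 1 library.

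With the replicate block, 22 genes and 0 list genes were called. The correlations of the deviations of same-numbered libraries were -0.06, -0.11 and -0.02, so no pairing by number was seen. A pairing in another order was not tested. No call on the 9 genes other than Fyco1 changed.

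Library size only moved the median log2 fold change of all genes to 0.18 from -0.02, and leaving out control 2 moved it to -0.17. The sign of the log2 fold change turned in some settings for 5 genes, none of them called in any setting. For Optn it was -0.0413 with edgeR and -0.455 with the replicate block, and from -0.338 (without control 2) to 1.52 with 1 library left out. For Lamp1 it was 0.0127 with edgeR, 0.0491 with DESeq2, 0.0282 with DESeq2 size factors in voom, 0.175 with library size only, 0.0727 with quantile normalization, 0.0180 with at least 10 counts in every library, 0.0868 with quality weights, 0.0207 with ribosomal RNA genes left out, and from -0.160 to 0.0905 with 1 library left out. With library size only it was 0.0231 for Map1lc3b and 0.117 for Gabarapl1. For Gabarapl1 it was 0.00103 with DESeq2 and from -0.209 to 0.0724 with 1 library left out. For Rab7 it was from -0.00235 to 0.490 with 1 library left out, the lowest without TDP-43iΔEC 1. The causes were not tested.

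Differences between 3 and 3 libraries below the spread of each gene cannot be seen here, and Optn, at 49 to 700 counts, was limited most. The length used changed levels per kilobase, with the canonical-transcript length chosen after seeing the data, as were the opposite-strand counts.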
